A study of Homo sapiens and Mus musculus with 12 samples.

Results

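The genes described here are the axon guidance ligands and receptors: the semaphorins of classes 3 to 7, the plexins and neuropilins, the ephrins and Eph receptors, the slits and roundabouts, and the netrins, netrin-G proteins, UNC5 receptors and DCC. They were chosen by patterns in the gene symbol, which use no measured value, with earlier results of these data known. They came to 71 of the 60675 human gene identifiers, 37 of them ligands and 34 receptors. In mouse, the orthologs were found by gene description and came to 71 identifiers carrying 70 symbols, of 47729 identifiers.

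RNA was sequenced from cortical organoids, clusters of stem cells steered toward the embryonic forebrain. The human organoids were grown from H9 cells, an established embryonic stem cell line, and were either WT, with the line code H9_WT_E2del19, or NOTCH2NL knockout (KO), with the line code H9_KO_E5del42. NOTCH2NL is human-specific and derived from NOTCH2, and the comparison asked how its loss affected cortical neurogenesis. All human organoids received SB431542, Dorsomorphin, IWR-1-Endo and Cyclopamine, the last an inhibitor of hedgehog signalling. They were harvested at week 4 (day 28) as pools of 5 to 10 organoids. The mouse organoids were grown from 46C embryonic stem cells, as stable lines overexpressing an EV control (line code 46C_EV) or NOTCH2NL-Sh_T197I cDNA (N2NL, line code 46C_N2NL). They were harvested at day 6 in pools of 16 organoids, and every group had 3 libraries. What the human line codes stand for was not given in the sources, and since each genotype has 1 code, genotype and line cannot be told apart. Nor can vector and line in mouse. No label ties the pools to separate cultures, so p-values measure only the spread between these pools, which may be technical.

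Axon guidance proteins steer growth cones by attraction or repulsion. Semaphorins signal through plexins, with neuropilins as co-receptors for most secreted class 3 members, and slits repel axons through roundabout receptors. Netrin attracts through DCC and repels when UNC5 receptors take part, netrin-G proteins are membrane-anchored relatives that bind other partners, and ephrins and Eph receptors signal between touching cells in both directions. Many of these proteins also act before axons form, in radial glia and in migrating neurons of the cortex.

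Total counts ran from 15381409 to 16382938 in the human libraries and from 16781742 to 20960391 in the mouse libraries, and levels are given as CPM, the count scaled to library size. The identifier named NOTCH2NL had 4, 5 and 3 counts in the WT libraries and 0 in each KO library. In KO, 3 counts would be 0.184 to 0.195 CPM. How fully this identifier captures NOTCH2NL reads was not tested, so the WT level is uncertain. The parent gene NOTCH2 was at 123 to 150 CPM in WT and 126 to 177 CPM in KO. In mouse, the authors' deposited table gave NOTCH2NL at 0 in each EV library and at 801, 709 and 740 normalised counts in the N2NL libraries. Of the marker lists for the labelled tissue, the 7 dorsal telencephalon genes, among them EMX2 and TBR1, summed to 464 to 1062 CPM in WT and 434 to 954 CPM in KO. The 11 ventral telencephalon genes summed to 102 to 187 CPM in WT and 342 to 557 CPM in KO, and the groups did not overlap. Of its 9 tested genes 5 were called higher (55.6%, against 2.31% of all genes tested), and NKX2-1 was at or near 0 in every library. DLX2, for example, stood at 1.49, 0.79 and 1.72 CPM in WT and 43.3, 41.2 and 69.6 CPM in KO. The part of this regional difference in the results below was not tested. In bulk libraries, fewer cells of a type and less RNA per cell cannot be told apart.

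To show the sequence context of called genes, the 250 bases before the RefSeq start are printed for 3 of them, with each CG dinucleotide in capitals. For SLIT1 and EPHA8 the RefSeq start lies upstream of the GENCODE gene bounds given with their values. The sequences are from RefSeq on GRCh38.p14, in which 60 of the 71 members had an entry. The EPHA4 window is chr2:221574203-221574452 on the minus strand, the SLIT1 window is chr10:97185960-97186209 on the minus strand, and the EPHA8 window is chr1:22563239-22563488 on the plus strand.
EPHA4: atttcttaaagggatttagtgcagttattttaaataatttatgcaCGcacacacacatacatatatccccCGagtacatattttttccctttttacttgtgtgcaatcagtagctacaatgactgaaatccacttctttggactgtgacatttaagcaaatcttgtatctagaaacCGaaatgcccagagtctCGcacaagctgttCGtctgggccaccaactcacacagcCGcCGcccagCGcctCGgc
SLIT1: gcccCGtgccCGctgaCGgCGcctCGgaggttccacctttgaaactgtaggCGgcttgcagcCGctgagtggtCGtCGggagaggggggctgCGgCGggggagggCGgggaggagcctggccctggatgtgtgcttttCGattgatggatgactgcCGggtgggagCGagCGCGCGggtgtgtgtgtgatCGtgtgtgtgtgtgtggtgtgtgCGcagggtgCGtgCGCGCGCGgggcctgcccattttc
EPHA8: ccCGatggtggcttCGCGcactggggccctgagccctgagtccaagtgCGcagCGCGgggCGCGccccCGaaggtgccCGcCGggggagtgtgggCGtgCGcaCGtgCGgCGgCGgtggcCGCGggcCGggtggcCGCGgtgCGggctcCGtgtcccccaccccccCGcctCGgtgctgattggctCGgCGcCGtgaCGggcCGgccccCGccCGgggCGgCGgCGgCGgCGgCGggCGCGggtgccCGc
The EPHA4 window held 9 CG dinucleotides and 43.2% G and C. The windows of SLIT1 and EPHA8 were richer, with 25 CG dinucleotides and 68.4% G and C at SLIT1 and 42 and 83.2% at EPHA8. Whether CG content goes with the direction of change was not tested. Over all promoter windows in that table the medians were 11 CG dinucleotides and 58.0% G and C. The letters TGGGAA, a core bound by the Notch effector RBPJ, and TAATTA, a core bound by many homeodomain proteins, were searched on both strands. Neither was in these 3 windows, and of all windows 20.8% held the first and 4.35% the second.

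Expressed levels per exon length were compared first, since they show which signals the organoids made. In WT, the receptor ROBO3, which in other contexts lets commissural axons cross the midline, had the highest mean per length at 74.9 CPM per kb. It was followed by the membrane-spanning ephrins EFNB3 at 58.0 CPM per kb and EFNB1 at 51.9 CPM per kb. The plexin PLXNB2, a receptor for class 4 semaphorins, stood at 43.4 CPM per kb, EFNB2 at 39.3 CPM per kb and SLIT1 at 33.7 CPM per kb. ROBO3 differed so much between libraries (299, 820 and 460 CPM in WT) that its place above the B-class ephrins was not beyond its spread. The 3 B-class ephrins were near each other too, at 142 to 214 CPM for EFNB1, 158 to 224 CPM for EFNB2 and 155 to 204 CPM for EFNB3 over the WT libraries. At the other end, EPHA1, NTN3, ROBO4 and SEMA3G were at means of 0.63 CPM or less in both groups and were too low to test.

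**Figure D1:**
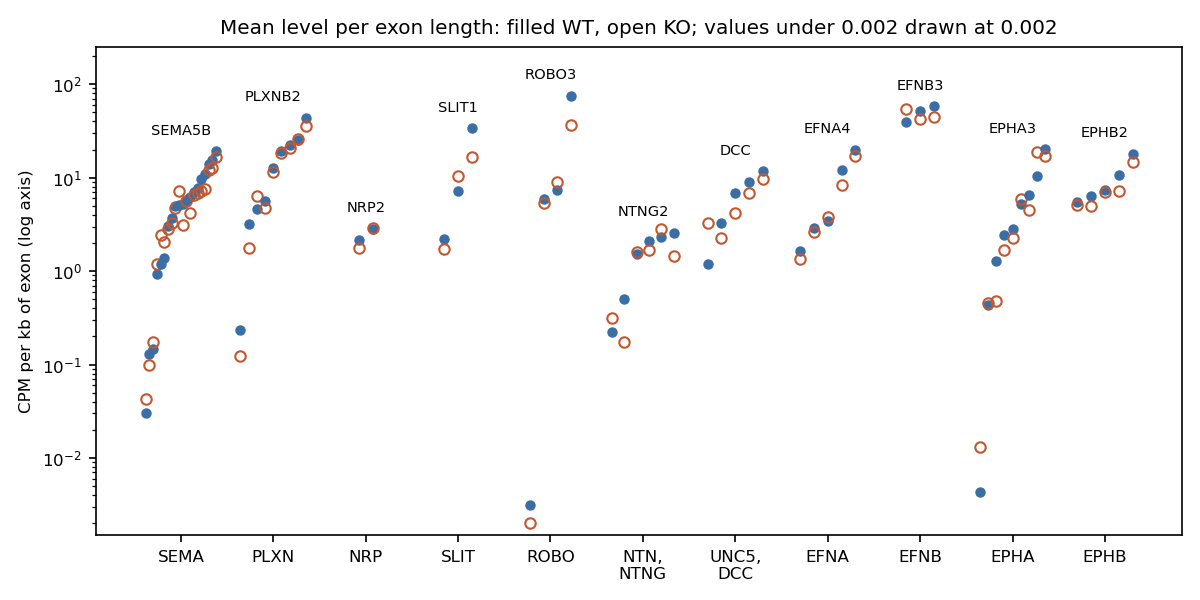
Mean CPM per kb of exon (log axis) of the 71 members by family in human organoids, filled for WT and open for KO; the named gene is the highest of its family in WT. ROBO3, the B-class ephrins, PLXNB2 and SLIT1 lie at the top, and EPHA1 and ROBO4 near 0.

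Of the 67 human members tested, 3 rose in KO (UNC5D, SEMA3A and EPHA4) and 4 fell (EPHA8, SLIT1, NTNG2 and UNC5A), at an adjusted p under 0.05 in edgeR's quasi-likelihood test over all 16956 genes tested. That is 10.4% of the members, against 5.5% of all genes tested (2.31% higher and 3.19% lower). Below 0 were 48 of the 67 log2 fold changes, or 71.6%, against 50.7% of all genes, 19 were above 0, against 49.3% of all genes, and the median was -0.22 against -0.00. At an unadjusted p under 0.05 edgeR had 24 members, or 35.8% against 22.8% of all genes. The WT and KO libraries did not overlap for 21 members, 5 higher and 16 lower in KO, or 31.3% against 28.8% of all genes. The count of called members followed single libraries: it was 17 without WT library 1 (25% against 8.27% of all genes), 4 without WT library 2 (5.88% against 2.88%), 1 without WT library 3 (1.47% against 1.29%) and 2 without KO library 1 (2.99% against 1.44%). Without KO library 2 or KO library 3 it was 6 (8.82% against 2.91%, and 8.96% against 3.03%). DESeq2 called 14 members (20.9% against 8.31%), and the edgeR fit without a filter on low counts 24 of all 71 (33.8% against 6.55%).

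**Figure D2:**
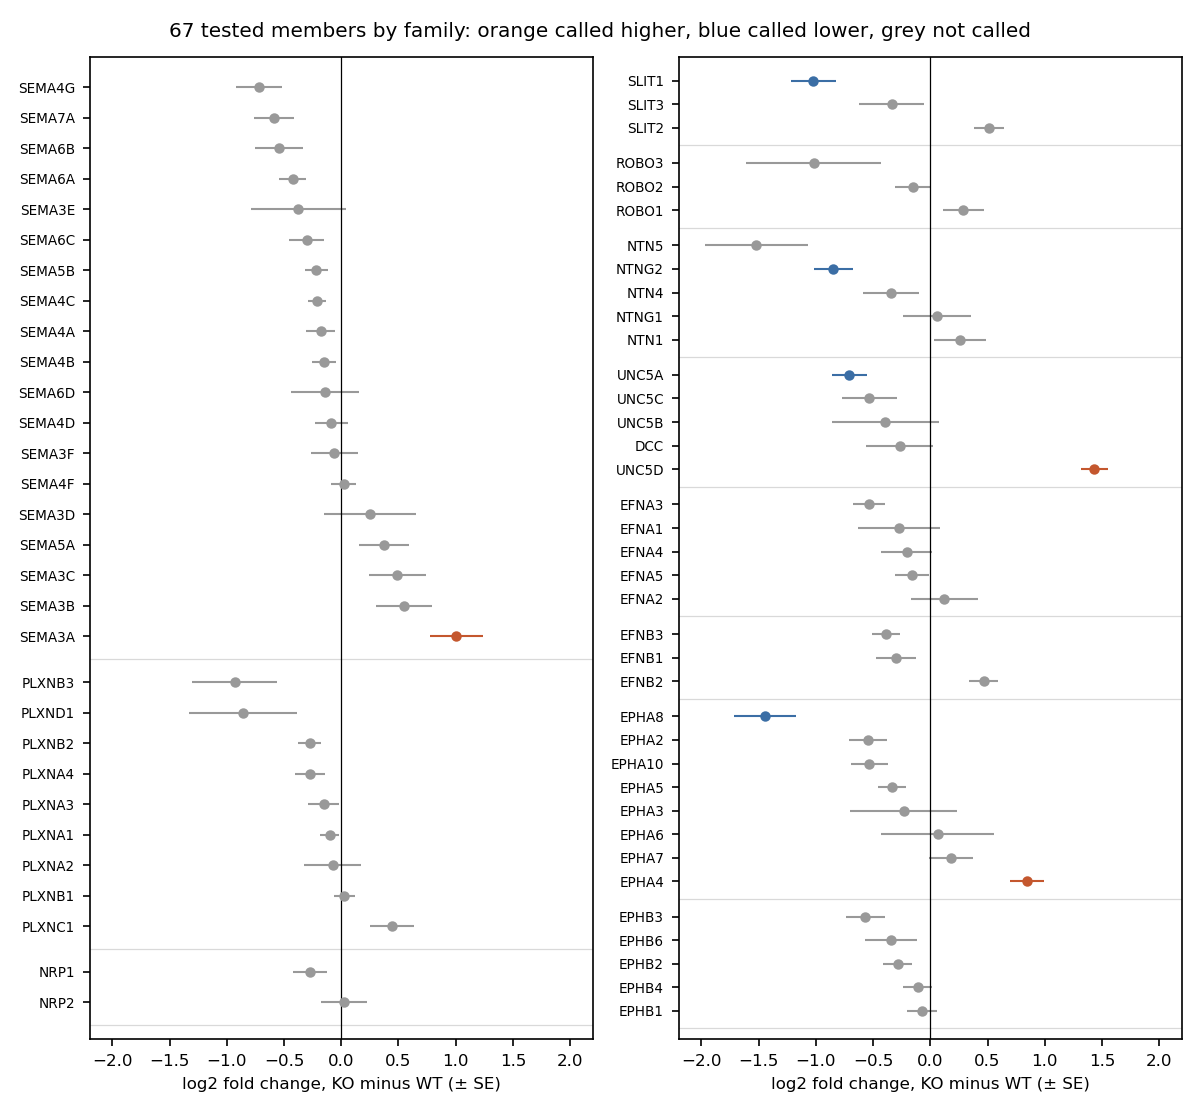
Log2 fold change (KO minus WT) with its standard error for the 67 tested human members, by family; orange points were called higher, blue points lower and grey points were not called. Of the 67 points, 48 lie below 0, and UNC5D has the highest value at 1.43.

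Among the ligands, 35 were tested, with 1 called higher and 2 called lower (8.57%, against 5.5% of all genes). Their median log2 fold change was -0.21. SLIT1, a secreted repellent of the slit family, lies at chr10:96998038-97185920 on the minus strand. It was at 234, 356 and 331 CPM in WT and at 135, 130 and 188 CPM in KO. Every KO library was below every WT library, with WT library 1 nearest to the KO values. SLIT1 fell by 1.02 ± 0.20 (SE) on the log2 scale (edgeR adjusted p = 0.0338). The call was lost without WT library 2 or 3 or KO library 1 or 2, where the edgeR adjusted p lay between 0.0921 and 0.123.

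The other slits had different values. SLIT2, a slit that repels many forebrain axons, was at 56.1, 83.8 and 70.5 CPM in WT and at 101, 104 and 96.3 CPM in KO. The groups did not overlap and every KO library was higher, but the log2 difference of 0.52 ± 0.13 (SE) missed the threshold (edgeR adjusted p = 0.0526). It passed without WT library 1 (edgeR adjusted p = 0.0375), without WT library 2 (0.0181) and in DESeq2 (0.0110). SLIT3, shown to complete the family, was at 18.4, 42.8 and 32.8 CPM in WT and at 22.9, 26.9 and 24.6 CPM in KO, so the groups overlapped. Of the fits that left out 1 library, SLIT3 was called lower in the one without WT library 1. The summed level of the 3 slits was 308 to 483 CPM in WT and 259 to 308 CPM in KO.

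SEMA3A, a secreted semaphorin that repels axons through neuropilin 1 and A-class plexins, lies at chr7:83955777-84492724 on the minus strand. It was at 14.8, 7.31 and 11.5 CPM in WT and at 21.6, 20.2 and 25.8 CPM in KO. All 3 KO libraries lay above the highest WT library. SEMA3A rose by 1.01 ± 0.23 (SE) on the log2 scale (edgeR adjusted p = 0.0414), or 2.01-fold. The call was lost without WT library 3 or any single KO library, where the edgeR adjusted p lay between 0.0820 and 0.152.

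It was the 1 semaphorin that edgeR called of 19 tested (5.26%, against 5.5% of all genes). Of these semaphorins, 13 had a log2 fold change below 0 (68.4%, against 50.7% of all genes). DESeq2 also called SEMA4G (adjusted p = 0.0155), SEMA7A (0.0347) and SEMA6A (0.0356). SEMA5B, the semaphorin with the highest mean CPM, was at 153, 173 and 164 CPM in WT and at 139, 124 and 158 CPM in KO. These groups overlapped in 1 library each, and the log2 difference was -0.22 ± 0.10 (SE). SEMA6A, a transmembrane semaphorin that binds A-class plexins, was at 86.6, 113 and 121 CPM in WT and at 82.4, 76.6 and 80.1 CPM in KO. SEMA4G was at 28.0, 31.8 and 21.6 CPM in WT and at 15.9, 20.9 and 12.7 CPM in KO. SEMA7A, a GPI-anchored semaphorin, was at 22.3, 25.1 and 23.6 CPM in WT and at 15.1, 12.2 and 19.9 CPM in KO. For these 3 every KO library was below every WT library, and the edgeR adjusted p was 0.0656, 0.0745 and 0.0753. SEMA6A passed without WT library 1, SEMA4G without KO library 2 and SEMA7A without KO library 3. SEMA4G and SEMA6A overlap genes on the opposite strand (MRPL43, at 78.1 CPM in WT, and RPS14P8). Whether the counting used strand was not stated, so both values are uncertain.

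NTNG2, a netrin-G protein anchored in the membrane, lies at chr9:132161676-132244534 on the plus strand. It was at 19.4, 21.5 and 19.8 CPM in WT and at 13.5, 8.71 and 11.5 CPM in KO. The WT libraries were close together and every KO library was lower. NTNG2 fell by 0.85 ± 0.17 (SE) on the log2 scale (edgeR adjusted p = 0.0197), and the call was lost without WT library 2 (0.0577) or WT library 3 (0.0903). NTN1, a secreted netrin shown as the counterpart of the mouse gene with the highest mean of its family, was at 16.1, 11.0 and 17.8 CPM in WT and at 18.8, 13.2 and 21.7 CPM in KO, with overlapping groups. NTN5 had the largest fitted change of the family, -1.52 ± 0.45 (SE), at a mean of 1.58 CPM in WT and 0.55 CPM in KO, and was not called (edgeR adjusted p = 0.0789).

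edgeR called none of the 8 ephrins, and DESeq2 called EFNB2 (adjusted p = 0.0133) and EFNA3 (0.0282). EFNB2, a membrane-spanning ligand of the Eph receptors, was at 224, 158 and 210 CPM in WT and at 290, 269 and 258 CPM in KO. All KO libraries were above all WT libraries, with a log2 difference of 0.47 ± 0.12 (SE) and an edgeR adjusted p of 0.0598. It passed without WT library 1 (0.0173), and with scaling by library size alone (0.0446). EFNB3 also passed in the fit without WT library 1. EFNA3, a GPI-anchored ephrin, was at 25.6, 22.5 and 21 CPM in WT and at 15.1, 18.2 and 14.3 CPM in KO, again without overlap (edgeR adjusted p = 0.0554). EFNA4, with the highest mean CPM of the A-class ephrins, was at 30.4, 20.1 and 24.2 CPM in WT and at 23.3, 26.2 and 15.2 CPM in KO, with overlapping groups.

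Among the receptors, 32 were tested, with 2 called higher and 2 called lower (12.5%, against 5.5% of all genes). Their median log2 fold change was -0.27. UNC5D, a netrin receptor of the UNC5 family that also binds FLRT proteins and is known from migrating cortical neurons, lies on chromosome 8. It was at 12.4, 14.3 and 12.1 CPM in WT and at 36.0, 33.2 and 35.7 CPM in KO. Libraries of each group lay close together and the groups were far apart. UNC5D rose by 1.43 ± 0.12 (SE) on the log2 scale, or 2.70-fold (edgeR adjusted p = 0.000241). It was the 1 member that was called in each of the 6 fits that left out 1 library.

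Its relative UNC5A moved in the opposite direction. UNC5A, also a netrin receptor, lies at chr5:176810477-176880898 on the plus strand and was at 27.3, 34.3 and 27.1 CPM in WT and at 18.1, 21.1 and 15.05 CPM in KO. All KO libraries were below all WT libraries. UNC5A fell by 0.71 ± 0.15 (SE) on the log2 scale (edgeR adjusted p = 0.0276), and the call was lost without WT library 2 or 3 or KO library 1 or 3 (0.0769 to 0.116). Per exon length, UNC5A stood at 6.78 CPM per kb and UNC5D at 1.19 CPM per kb in WT, and at 4.15 and 3.23 CPM per kb in KO. DCC, the attractive netrin receptor, was at 111, 185 and 168 CPM in WT and at 126, 89.4 and 169 CPM in KO. Its groups overlapped, with a log2 difference of -0.27 ± 0.29 (SE).

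EPHA4, an Eph receptor that binds ephrins of both classes, lies at chr2:221418027-221574202 on the minus strand. It was at 94.0, 63.1 and 78.3 CPM in WT and at 161, 128 and 134 CPM in KO. Every KO library was above every WT library. EPHA4 rose by 0.85 ± 0.15 (SE) on the log2 scale, or 1.80-fold (edgeR adjusted p = 0.0161), and the call was lost without WT library 3 (0.0891) or KO library 1 (0.0587). EPHA8 lies at chr1:22563564-22603594 on the plus strand and was the called member with the lowest level. It was at 4.92, 8.53 and 7.30 CPM in WT and at 2.02, 2.54 and 3.06 CPM in KO, without overlap. EPHA8 fell by 1.44 ± 0.27 (SE) on the log2 scale (edgeR adjusted p = 0.0158), and the call was lost without WT library 2 or 3 or KO library 1 or 2 (0.0542 to 0.0870).

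**Figure D3:**
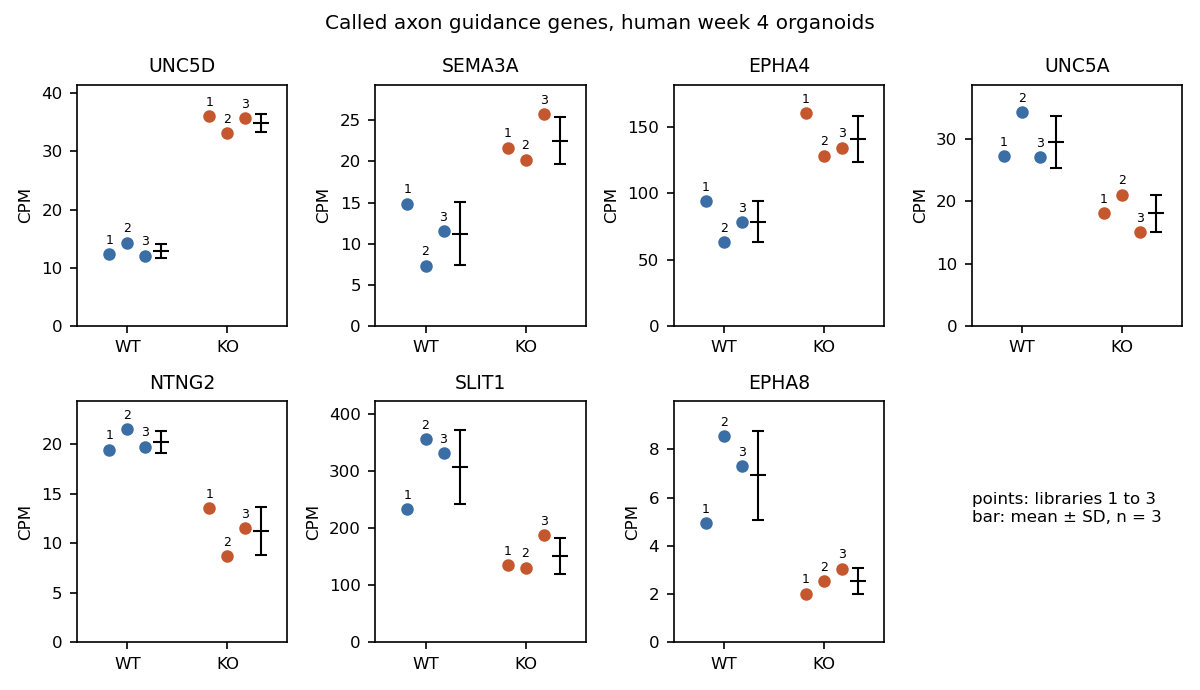
CPM of the 7 called members in each human library (points numbered by library) with the group mean and SD (n = 3). In each panel the WT and KO points do not overlap, and UNC5D shows the narrowest groups relative to the distance between them.

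Of the other A-class receptors, EPHA10 was at 18.9, 24.5 and 16.3 CPM in WT and at 14.1, 13.7 and 13.5 CPM in KO, without overlap, and was not called (edgeR adjusted p = 0.0856). EPHA2, which of the fits without 1 library passed in the one without KO library 2, was at 25.5, 25.7 and 30.8 CPM in WT and at 14.8, 23.5 and 17.8 CPM in KO; it was chosen after its values were seen. All 5 B-class receptors had a log2 fold change below 0; edgeR called none of them, and DESeq2 called EPHB3 (adjusted p = 0.0310). EPHB2, with the highest mean CPM of that class, was at 187, 249 and 243 CPM in WT and at 174, 171 and 212 CPM in KO. EPHB3, with the largest change, was at 36.4, 56.2 and 53.2 CPM in WT and at 27.7, 34.8 and 36.0 CPM in KO. In both the KO values tended lower, and only those of EPHB3 did not overlap with WT; both passed without WT library 1 (edgeR adjusted p = 0.0351 and 0.00492).

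edgeR and DESeq2 called no semaphorin receptor. Without a filter on low counts edgeR called PLXNC1, and without WT library 1 it called PLXNA4. Both are named here after their values were seen. PLXNB2 was at 315, 330 and 300 CPM in WT and at 274, 284 and 224 CPM in KO, without overlap, at an edgeR adjusted p of 0.141. PLXNB3, at a mean of 1.65 CPM in WT and 0.86 CPM in KO, had the largest fitted change of the plexins at -0.93 ± 0.37 (SE). NRP1, the neuropilin that binds SEMA3A, was at 19.6, 27.4 and 26.9 CPM in WT and at 19.8, 20.0 and 21.4 CPM in KO. NRP2 was at 46.2, 37.2 and 35.4 CPM in WT and at 50.8, 41.6 and 28.8 CPM in KO. Both neuropilins overlapped between the groups, while SEMA3A did not. The slit receptors ROBO1 and ROBO2 were at 79.3 to 84.3 and 96.6 to 101 CPM in WT, and at 75.0 to 129 and 66.7 to 108 CPM in KO.

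The members varied between pools of 1 genotype: their median coefficient of variation over the WT libraries was 19.8%, against 12.4% for all genes tested. ROBO3 was the extreme among the well expressed members, at 299, 820 and 460 CPM in WT and 275, 115 and 388 CPM in KO. Its mean in KO was 0.493 of that in WT, but the log2 difference of -1.02 ± 0.59 (SE) was within its spread (edgeR adjusted p = 0.378). EPHA3 was at 66.4, 176 and 159 CPM in WT and at 104, 77.2 and 160 CPM in KO. SEMA6D, chosen like the library pattern itself after the values were seen, was at 45.2, 79.9 and 57.4 CPM in WT and at 46.3, 43.6 and 75.7 CPM in KO.

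These genes, and DCC, shared an order of libraries. The dorsal telencephalon list summed to 1062, 464 and 618 CPM in WT libraries 1 to 3 and to 824, 954 and 434 CPM in KO libraries 1 to 3. Inside each group, ROBO3, EPHA3, DCC and SEMA6D were lowest where that list was highest and highest where it was lowest. Exactly this opposite order in both groups was shown by 17 of the 67 tested members (25.4%), SLIT1 among them, against 7.17% of all genes tested. The same order as the list was shown by 5 members (7.46%), against 5.98% of all genes. The midbrain, hindbrain and spinal cord list, at 149, 303 and 220 CPM in WT and 114, 55.5 and 186 CPM in KO, had the opposite order too. The neuron list, at 2678, 3579 and 3363 CPM in WT and 3031, 2509 and 3716 CPM in KO, likewise had the full opposite order in both groups. The part of regional or neuronal makeup in the members' values was not tested.

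**Figure D4:**
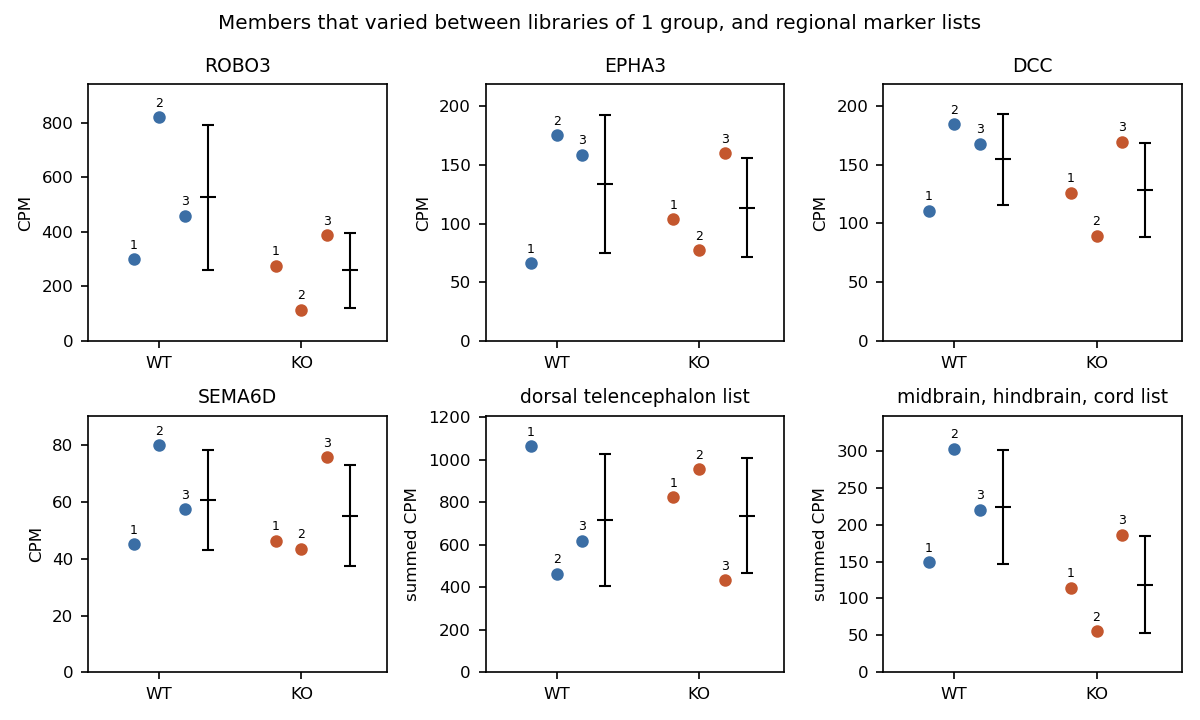
CPM of ROBO3, EPHA3, DCC and SEMA6D and summed CPM of 2 regional marker lists in each human library (points numbered by library) with the group mean and SD (n = 3). WT library 1 and KO library 2 are low for the 4 genes and for the midbrain, hindbrain and cord list, and high for the dorsal telencephalon list.

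Other genes of the guidance pathways were counted from fixed lists of 10 further cues, 14 further receptors and adhesion molecules and 35 cytoplasmic effectors. Of these 59, 58 were tested in human, with 1 called higher and 4 called lower (8.62%, against 5.5% of all genes, 2.31% higher and 3.19% lower) and a median log2 fold change of -0.06. The gene that rose was FLRT2, a cell surface ligand of UNC5D, at 25.5, 30.04 and 23.7 CPM in WT and at 45.6, 67.5 and 48.6 CPM in KO. Its groups did not overlap, and the log2 difference was 1.03 ± 0.16 (SE) (edgeR adjusted p = 0.00822); the call was lost without WT library 3. NRCAM, an adhesion molecule that serves as a semaphorin co-receptor, fell by 0.70 ± 0.10 (SE) (edgeR adjusted p = 0.00564), and was called in all 6 fits without 1 library. SRGAP3, a cytoplasmic partner of roundabout receptors, fell by 0.50 ± 0.10 (SE) (edgeR adjusted p = 0.0169). CXCR4, the receptor of the chemokine CXCL12, fell by 0.66 ± 0.15 (SE) (edgeR adjusted p = 0.0428), and RND1, a small GTPase that binds plexins, by 0.60 ± 0.15 (SE) (edgeR adjusted p = 0.0403). SRGAP3 was called in 3 of the 6 fits without 1 library, CXCR4 in 2 and RND1 in 1, the fit without WT library 1.

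In mouse organoids at day 6, which tested the gain of a NOTCH2NL protein in a species that lacks NOTCH2NL, no guidance member was called. edgeR and DESeq2 both called 0 of the 67 members tested, beside 0.012% of all 16682 genes tested by edgeR and 0.162% of those by DESeq2. At an unadjusted p under 0.05 edgeR had 10 members, or 14.9% against 7.45% of all genes. The groups did not overlap for 9 members (13.4% against 12.7% of all genes), 7 of them higher in N2NL (7.39% of all genes were) and 2 lower (5.31%). Above 0 were 38 of the log2 fold changes (48.3% of all genes were) and below 0 were 29 (51.7%). They ran from -0.44 to 0.39 with a median of 0.03, and none was over 0.5 in size, while 21 of the 67 human members were. This gap was not particular to the members. Over all genes tested, log2 fold changes ran from -1.94 to 2.71 in mouse and from -10.7 to 8.74 in human. The share of all genes over 0.5 in size was not counted.

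Slit3 had the lowest p of the mouse members, at 28.5, 34.5 and 36.7 CPM in EV and 37.7, 47.3 and 44.1 CPM in N2NL. Every N2NL library was higher, by 0.37 ± 0.11 (SE) on the log2 scale (edgeR adjusted p = 0.456). It was called in the edgeR fit without a filter on low counts (adjusted p = 0.0367), as were 0.383% of all genes. The authors' deposited table gave Slit3 an adjusted p of 0.0332, the 1 mouse member under 0.05 there, and it gave 14 human members. Epha8, which had the largest change of the family, was at 7.0, 7.67 and 8.65 CPM in EV and at 4.43, 5.94 and 6.86 CPM in N2NL, with a log2 difference of -0.44 ± 0.18 (SE). Dcc was at 13.3, 13.9 and 15.6 CPM in EV and at 8.22, 11.2 and 13.4 CPM in N2NL, with a log2 difference of -0.39 ± 0.16 (SE). Both were lower in N2NL on average, and only Epha8 was without overlap.

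The orthologs of the other called human members differed little. Epha4 was at 90.5, 101 and 96.7 CPM in EV and at 93.1, 96.7 and 104 CPM in N2NL. Sema3a was at 23.1, 21.2 and 22.0 CPM in EV and at 23.3, 20.8 and 20.1 CPM in N2NL. Unc5a was at 14.4, 14.0 and 17.4 CPM in EV and at 19.2, 17.5 and 16.4 CPM in N2NL. Their groups overlapped, with log2 differences of 0.03 ± 0.07, -0.04 ± 0.10 and 0.22 ± 0.12 (SE). Slit1 was at 31.7, 46.0 and 49.6 CPM in EV and at 31.5, 40.0 and 43 CPM in N2NL. Unc5d and Ntng2 were low at this stage, at 0.43 to 1.27 and 1.74 to 2.59 CPM in EV, and overlapped as well.

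Family by family, the mouse members lay closer together than the human ones. All 5 B-class Eph receptors had a log2 fold change above 0 in mouse, from 0.12 to 0.23, where all 5 were below 0 in human. Ephb3 was at 25.7, 29.3 and 27.6 CPM in EV and at 31.7, 35.1 and 30.2 CPM in N2NL, without overlap (edgeR adjusted p = 0.621). Efnb2, the ephrin with the largest EFNB change, was at 120, 117 and 120 CPM in EV and at 123, 133 and 141 CPM in N2NL (edgeR adjusted p = 0.666). Sema7a, whose change was the largest of the semaphorins only by a margin far inside its SE (-0.40, as for Sema3e), was at 14.8, 12.9 and 9.93 CPM in EV and at 11.6, 8.38 and 8.40 CPM in N2NL. Ntn4, with the largest change of the netrins, was at 6.62, 6.25 and 7.09 CPM in EV and at 6.98, 8.68 and 10.7 CPM in N2NL. Of the 64 members tested in both species, 26 had the same sign and 38 opposite signs. The share over all genes was not counted. Of the 67 members tested in each species, 48 were below 0 in human and 38 above 0 in mouse. Species, age and line differ between the comparisons. Of the 59 other guidance pathway genes, all tested in mouse, edgeR called 0. The neuron list summed to 630 to 787 CPM in EV and 563 to 617 CPM in N2NL, and the dorsal telencephalon list to 243 to 271 and 334 to 339 CPM, whose part in these values was not tested.

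**Figure D5:**
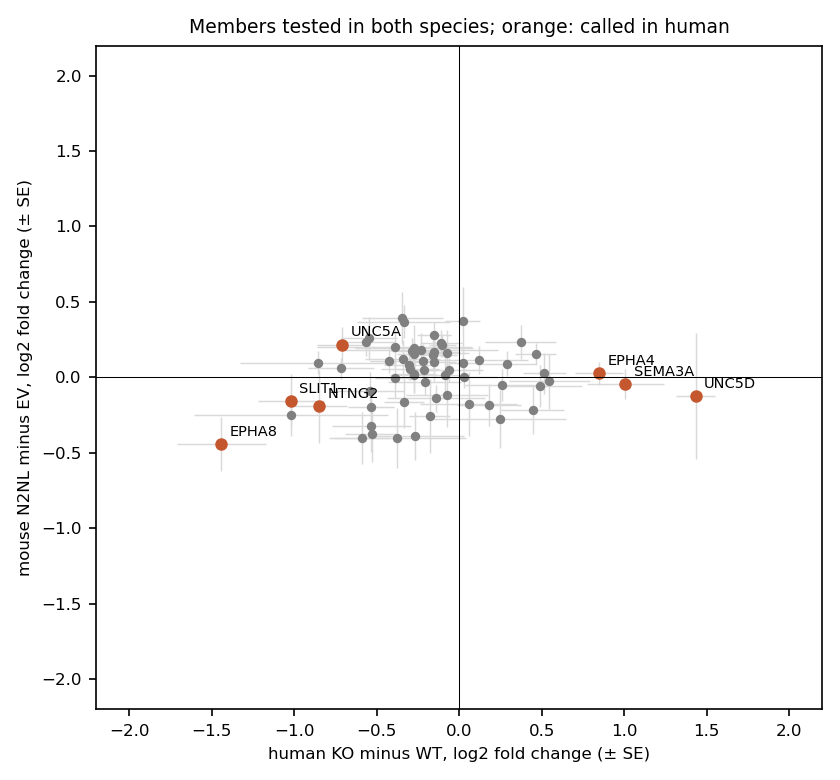
Log2 fold changes with standard errors of the 64 members tested in both species, human (KO minus WT) on the x axis and mouse (N2NL minus EV) on the y axis, drawn to the same scale; orange points were called in human. The human values spread from -1.44 to 1.43 and the mouse values from -0.44 to 0.39.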

How the data were processed

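Reads came from strand-specific poly(A) RNA libraries, per the labels' protocols; the submitters' processing notes name HTSeq 0.6.1p1, STAR 2.4.0, Bowtie2 2.3.3.1, Trimmomatic 0.36 and DESeq2, with builds hg38 and mm10 and no role for each. The authors deposited raw counts per gene, used for every test. The authors' deposited tables also hold DESeq2 p-values, normalised counts rounded to whole numbers and, in human, log2 fold changes, all treated as scores. In the mouse counts, reads with no feature were 5.77% to 6.50% of all lines. Reads without a unique alignment were 26.64% to 33.67%, highest in EV library 1, and reads of low alignment quality 4.42% to 5.65%. Ambiguous reads were 0.77% to 0.91%. All of these stayed out of library sizes.

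Each species was fitted alone with edgeR 4.0.16 in R 4.3.3: filterByExpr, TMM, robust quasi-likelihood F test, and Benjamini-Hochberg adjustment over all genes tested, called at 0.05. CPM use the TMM-scaled library sizes, and the SE is the fold change divided by the root of F; human exon lengths came from GENCODE 29. On simulated counts, the human fit recovered 23.9%, 55.2% and 90.9% of genes changed 1.5-, 2- and 4-fold among 16956 genes. The mouse fit recovered 68.7%, 89.6% and 97% among 16682. The changed genes were drawn at random from all genes tested. Recovery of the members, which varied more between WT libraries, was not simulated. Alternatives were DESeq2 1.42.0, other scalings and filters, a replicate block and leaving out each library. Floors cover counting error only.

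Named members were those called, with their orthologs; in each family the highest control mean and the largest change; and the 8 uncalled human members with the lowest p. Further members, among them SLIT3 and NTN1 in human, were added after their values were seen. The members and lists were chosen with earlier results of these data known.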

Additional observations from a re-analysis of the deposited data

How the results depend on the processing

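In human organoids, 7 members and 932 genes were called. DESeq2 called 14 members and 1409 genes, and no filter on low counts 24 members and 2155 genes. Leaving out 1 library gave 1 to 17 members and 224 to 1440 genes. Scaling by library size or RLE factors and a mean of at least 10 counts stayed within 1.5 times of both counts. In mouse, 2 genes and 0 members were called. DESeq2 called 27 genes, no filter 117 genes and 1 member (Slit3), and leaving out 1 library 0 to 17 genes. The cause of these shifts was not tested.

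Same-numbered libraries did not deviate together in every pair (r = 0.216, -0.113 and 0.126 in human, 0.143, 0.0159 and -0.00485 in mouse). With 3 libraries per group these values cannot decide whether the numbers pair samples, and no label says so. With the replicate block, 11 human members (899 genes) and 21 mouse genes were called.

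Some uncalled log2 differences near 0 changed sign when 1 library was left out. Over those fits the human values ran for EPHA3 from -0.559 to 0.0198 and for NRP2 from -0.154 to 0.223. The mouse values ran for Epha4 from -0.0188 to 0.0649, for Unc5d from -0.403 to 0.369, for Nrp2 from -0.036 to 0.0533, for Nrp1 from -0.027 to 0.0677, for Ntn1 from -0.145 to 0.0522 and for Slit2 from -0.0836 to 0.164. Nrp2 also turned to -0.00404 with library size alone. None of the 7 called human members changed direction in any fit run. Depth limits NTN5, PLXNB3, Unc5d and Ntng2 most, as the named members with the lowest control means.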
